A study of Homo sapiens with 11 samples.

Results

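Aminoacyl-tRNA synthetases were followed as a family of 35 genes, 19 for the cytosolic enzymes and 16 for the mitochondrial enzymes, among RNA windows recovered with the ribosomal protein RPS19. A window belonged to the family when a gene name given for it in the deposited lists was a member. This gave 366 windows of the 122708 listed in any group, and 32 of the 35 genes had at least 1. The windows came from enhanced crosslinking and immunoprecipitation (eCLIP), in which cells are crosslinked, RNA is fragmented and the RNA attached to a protein is precipitated and sequenced. The cells were HEK293T, a human embryonic kidney line. The immunoprecipitates (IP) came from cells transfected with a plasmid for V5-tagged RPS19, either wild type (WT, 3 replicates) or with the Diamond-Blackfan anemia substitutions R62W (3 replicates) or R101H (2 replicates), and used an antibody to V5. The 3 size-matched inputs came from cells without a plasmid and without precipitation, so transfection differs between IP and input. All IP groups also overexpress the tagged protein, and the labels do not say that endogenous RPS19 was removed or that replicates were separate cultures. P-values therefore reflect no more than the variation among these libraries, part or all of which may be technical.

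Each synthetase joins an amino acid to its tRNA, the step that ties each codon to its amino acid. Separate nuclear genes, mostly ending in 1 and 2, encode the cytosolic and the mitochondrial enzyme for most amino acids, while KARS1 and GARS1 encode both forms and are counted here as cytosolic. Several cytosolic enzymes sit in the multisynthetase complex, and the enzymes fall into structural classes I and II. All are translated by cytosolic ribosomes, whose small subunit contains RPS19.

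QARS1, the cytosolic glutaminyl-tRNA synthetase, had a short 5′ UTR window at the start of its mRNA. It covers chr3:49104734-49104760 on the minus strand, 27 bases of RefSeq GRCh38.p14, and was in all 3 lists. It is shown because many mRNAs of the translation machinery begin with a C and a run of pyrimidines. Capitals mark the C at the RefSeq start and the 4 bases after it, each a C or a T:

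QARS1 5′ UTR window: tttCTTTTagtttccggtgtctctgca

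The bases that follow it are ATG. A C at the RefSeq start followed by 4 bases that are each C or T, read on the strand of the gene only, was present in 4.07% of 35116 RefSeq start entries. Among 39 entries of the 30 matched synthetase genes it was present in 2, those of QARS1 and WARS2. The match describes letters only.

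The QARS1 start window was above input in each group. Its log2 odds ratio, IP over input, was 1.73 and 2.03 in the 2 WT replicates in which it passed the authors' test, mean 1.88. It was 1.81, 2.02 and 2.60 in R62W, mean 2.14, and 2.25 and 2.87 in R101H, mean 2.56. The pooled input counts were 34, 54 and 40 and the pooled IP counts 96, 168 and 185. WT lay lowest by mean, and the ranges of R62W overlapped both others. The difference from WT was 0.26 ± 0.35 (SE) for R62W, adjusted p = 0.876, and 0.68 ± 0.44 for R101H, adjusted p = 0.395, in limma.

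Every enrichment value here is such a log2 odds ratio from the authors' deposited table of the group, which holds for each window the smallest, the average and the largest value among the replicates that passed. A listed window passed in at least 2 replicates, with a highest q of 0.2 or less, so a replicate that did not pass has no value and a window outside a list is not a measured 0. Counts are pooled over passing replicates, and counts are low: the median synthetase window held 10.5, 13 and 12 input counts and 44.5, 47.5 and 51 IP counts in WT, R62W and R101H. Over all listed windows the medians were 11, 12 and 11 for input. The 3 lists differ greatly in length, with 15402 windows for WT, 86567 for R62W and 93331 for R101H. The sources used here do not say which input libraries went into each list. In 28 of the 62 synthetase windows that passed in 2 replicates of both R62W and R101H, the pooled input count was the same number in both lists, as in 42% of 25565 such windows overall.

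Far more synthetase windows were listed with the substitutions than with WT. The WT list held 24 windows of 11 synthetase genes, the R62W list 226 windows of 29 and the R101H list 274 windows of 30. Among the 8697 genes listed in any group, 38% had a window in WT, 89.5% in R62W and 93.5% in R101H, against 34.4%, 90.6% and 93.8% of the 32 synthetases listed in any group. The synthetase windows were 9.42 and 11.4 times as many as in WT, and all windows 5.62 and 6.06 times as many. These ratios do not compare like annotations, because introns were 31.4% of all WT windows, 13.5% in R62W and 10.7% in R101H. Coding windows alone numbered 18, 146 and 185 for synthetases, against 5514, 46024 and 50152 in the full lists. When each list was taken at the length of the WT list, ranked by mean log2 odds ratio, it held 34 synthetase windows of 16 genes in R62W and 19 of 8 genes in R101H. That ranking favours windows of low input, while the WT list stays whole. Coding medians were 2.29 and 2.43 at 0 to 9 input counts and 1.18 and 1.20 from 50 in R62W and R101H. Kept to windows with a q no higher than 0.05, the lists held 5, 40 and 78, which is 8 and 15.6 times as many as in WT. All windows at that limit numbered 2987, 22616 and 43148, which is 7.57 and 14.4 times as many. These are counts from 1 list per group, with no replicate spread and no test.

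**Figure D1:**
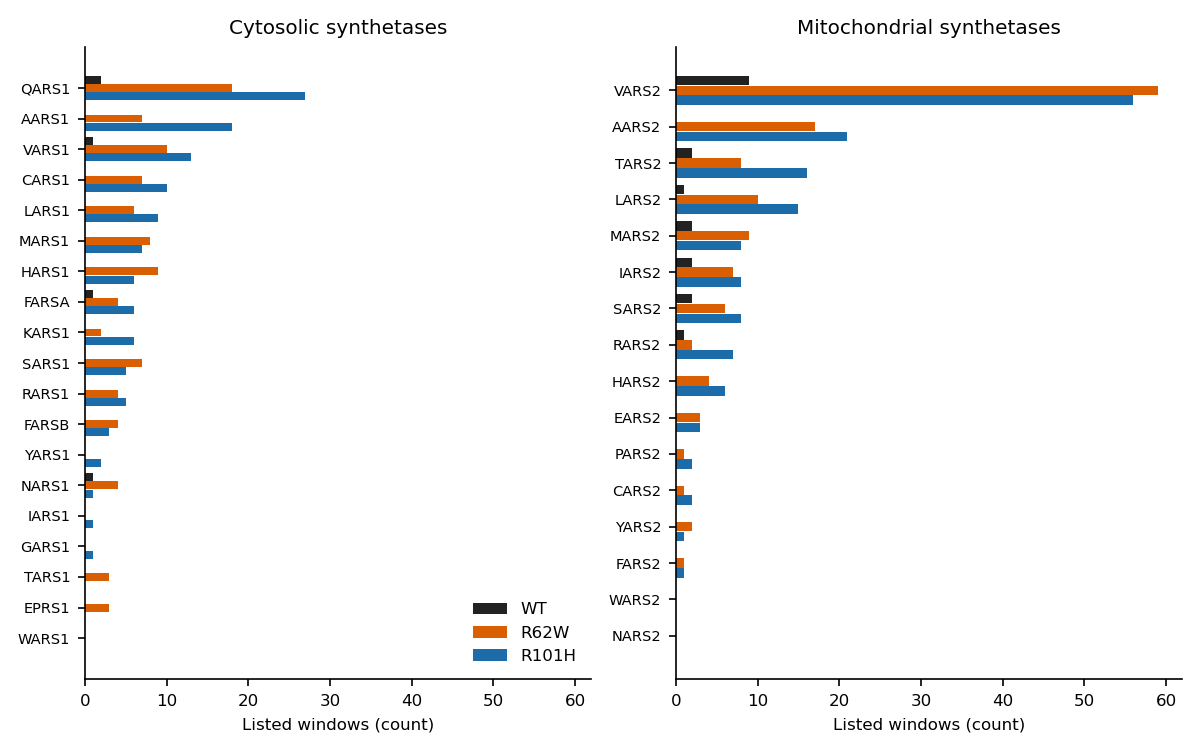
Number of listed windows (horizontal axis) for each cytosolic (left) and mitochondrial (right) synthetase gene in WT, R62W and R101H, with 1 bar per group and no error because each group has 1 list. VARS2 has the most windows in each group, with 9, 59 and 56.

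By gene, 11 members were listed in all groups, and 16 in both substitution lists and not in WT. Among all listed genes that last pattern held for 46.1%. EPRS1 and TARS1 were listed in R62W alone, as were 5.67% of all listed genes. GARS1, IARS1 and YARS1 were listed in R101H alone, as were 10.2%. WARS1, the cytosolic tryptophanyl-tRNA synthetase, and the mitochondrial NARS2 and WARS2, for asparagine and tryptophan, were in no list. The genes of a single list had few windows there. EPRS1, which joins both glutamate and proline to tRNA, had 3 windows in R62W, with 2 coding windows at 0.96 and an intron window at 3.60 that rested on 3 input counts. TARS1, the threonyl enzyme, had 3 windows between 1.07 and 2.80. GARS1, the glycyl enzyme, had 1 intron window at 2.03 in R101H, IARS1, the isoleucyl enzyme, had 1 coding window at 0.90, and YARS1, the tyrosyl enzyme, had 2 windows at 0.73 and 1.55.

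VARS2, the mitochondrial valyl-tRNA synthetase, had the most windows of the family in every list. Its windows numbered 9 (WT), 59 (R62W) and 56 (R101H), which is 37.5%, 26.1% and 20.4% of the synthetase windows. In the full lists 345, 178 and 211 genes had more windows. VARS2 lies on the plus strand of chromosome 6, where RefSeq places it at chr6:30914238-30926459. All 9 WT windows were also in the other lists, where 79.6% and 72% of all WT windows were found again in R62W and R101H. R62W and R101H shared 50 VARS2 windows, 84.7% of the R62W and 89.3% of the R101H windows. By comparison they shared 69.2% and 64.2% of all windows, and 51.5% and 39.4% of the windows of the other synthetases. No test was made of these differences.

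VARS2 windows were spread over the whole gene. In R62W they comprised 35 coding, 7 5′ UTR, 2 3′ UTR and 15 intron windows, and in R101H 34, 6, 2 and 14. WT had 7 coding, 1 5′ UTR and 1 3′ UTR window and no intron window. The intron windows had medians of 2.27 in R62W and 2.50 in R101H, each on a median of 5 input counts. Coding windows had medians of 1.85, 2.11 and 2.29 for WT, R62W and R101H, against 1.72, 1.82 and 1.93 for all coding windows of each list. At like input the WT medians were not above, at 1.95 against 2.38 with 0 to 9 input counts and 1.75 against 1.77 with 10 to 19. With 0 to 9 counts they were 2.34 against 2.29 in R62W and 2.41 against 2.43 in R101H. Ranges of higher input in R62W and R101H are given below, and there VARS2 was above.

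**Figure D2:**
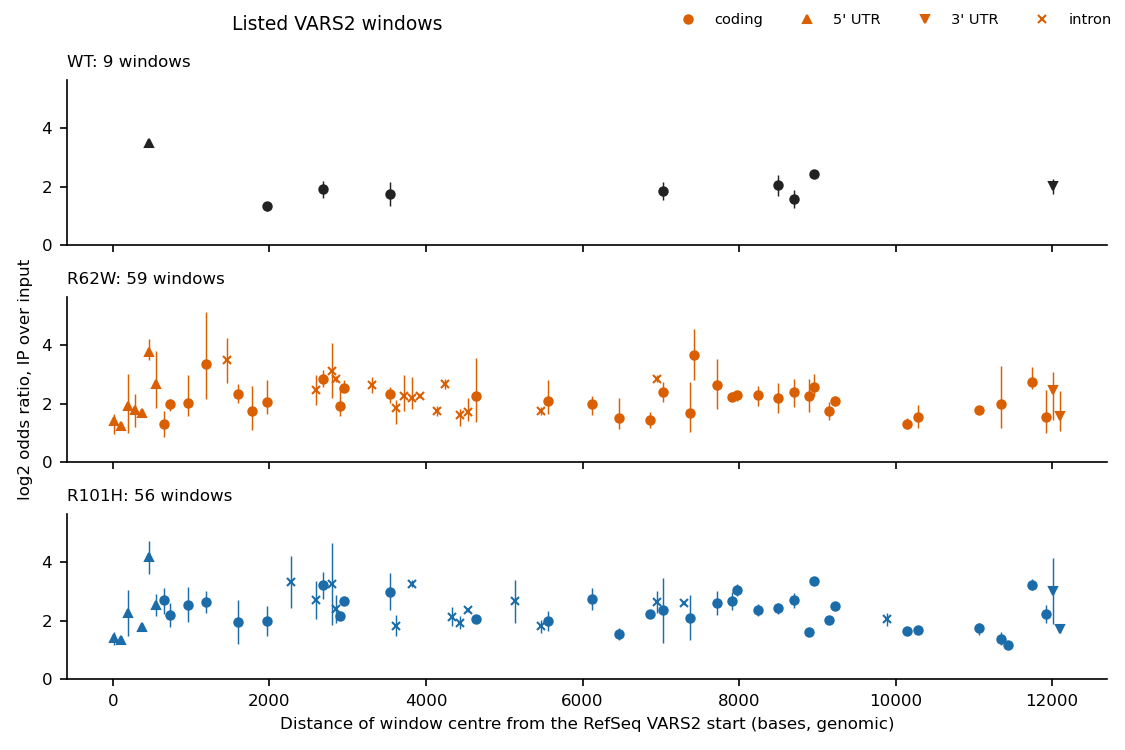
Log2 odds ratio of each listed VARS2 window (vertical axis) against the distance of its centre from the RefSeq start of the gene in bases (horizontal axis), for WT, R62W and R101H. Symbols mark the annotation, points are means and lines run from the lowest to the highest passing replicate. The 9 WT windows lie along the gene, and the highest point in WT and in R101H is the 5′ UTR window, at 3.50 and 4.17.

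The highest VARS2 window of each group was in the 5′ UTR at chr6:30914656-30914745. Its values were 3.46 and 3.54 (WT), 3.48, 3.65 and 4.20 (R62W) and 3.61 and 4.72 (R101H). It rested on 3, 5 and 3 input counts and 34, 66 and 58 IP counts. All R101H values lay above both WT values, and R62W overlapped both groups. The coding window at chr6:30916878-30916959 was 1.62 and 2.20 (WT), 2.56, 2.75 and 3.17 (R62W) and 2.75 and 3.65 (R101H). There the 2 passing WT values lay below every value of the other groups, and the WT replicate that did not pass has no value. The differences were 0.91 ± 0.35 (SE) for R62W, adjusted p = 0.472, and 1.29 ± 0.50 for R101H, adjusted p = 0.224, in limma. Both are the largest among the VARS2 windows compared with WT. How often values separate in this way over all windows was not counted, here or at the windows below. The coding window at chr6:30923168-30923231 was 2.42 and 2.45 (WT), 2.25, 2.47 and 3.03 (R62W) and 3.33 and 3.34 (R101H). Only R101H stood apart from WT at that window, by 0.90 ± 0.39, with an adjusted p of 0.25 in limma.

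All 9 VARS2 windows measured in WT had higher means in R62W, by 0.14 to 0.91 with a median of 0.55, and in R101H, by 0.37 to 1.29 with a median of 0.90. None passed an adjusted p of 0.05 in limma, against 0% of the 12263 and of the 11082 windows listed in both groups. An unadjusted p under 0.05 was reached by 1 and 2 of them, 11.1% and 22.2%, close to the 10.2% and 21.3% of all such windows. With at least 10 input counts in both lists, 5 VARS2 windows remained for R101H minus WT, with a median of 1.11 and a lowest adjusted p of 0.082. An unadjusted p under 0.05 was reached by 4 of them, and by 33.2% of the 6945 windows so filtered, of which 654 were called. Over all windows the substitution values were higher in 72.4% (R62W) and 82.5% (R101H), with medians of 0.26 and 0.60. Centred on those medians, VARS2 was higher in 7 of 9 windows in each comparison, with medians of 0.29 and 0.30. Each WT value rests on 2 of the 3 replicates, because none of these windows passed in all 3, and both comparisons share the WT samples.

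Between the substitutions, the median VARS2 difference was close to that of all windows. R101H was higher in 35 of 50 windows with a median difference of 0.20, and over all 59874 shared windows it was higher in 71.8% with a median of 0.21. The largest difference was in the coding window at chr6:30914837-30914936, with values of 0.87, 1.33 and 1.74 in R62W and 2.24 and 3.13 in R101H. The groups did not overlap there, and the difference of 1.37 ± 0.43 (SE) had an adjusted p of 1 in limma.

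QARS1, a member of the multisynthetase complex, had the most windows of the cytosolic genes, with 2 in WT, 18 in R62W and 27 in R101H. Apart from the start window, its coding windows had medians of 1.40 over 13 windows in R62W and 1.30 over 20 in R101H, and 4 and 5 intron windows had medians of 2.23 and 2.21. R101H was higher in 11 of 17 shared windows, with a median difference of 0.23. The coding window at chr3:49101620-49101705 had the largest difference, with 1.12, 1.15 and 1.36 in R62W and 1.82 and 2.29 in R101H. Those values did not overlap, at 0.85 ± 0.33 (SE) and an adjusted p of 1 in limma.

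VARS1, the cytosolic valyl enzyme, was listed with 1, 10 and 13 windows. Its WT window, coding sequence at chr6:31781019-31781070, was 1.14 in both passing WT replicates. It was 1.41, 1.82 and 2.03 in R62W and 1.78 and 2.18 in R101H, on 24, 34 and 23 input counts. WT was below all other values, by 0.62 ± 0.32 (SE) for R62W, adjusted p = 0.57, and by 0.84 ± 0.41 for R101H, adjusted p = 0.29, in limma. R101H exceeded R62W in 7 of 7 shared VARS1 windows, with a median difference of 0.33, the largest among synthetases with at least 3 shared windows.

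AARS1, the cytosolic alanyl enzyme, was in no WT window and had 7 windows in R62W and 18 in R101H. Its values were among the lowest of the family, with medians of 0.89 and 1.05, and its windows held much input, with medians of 79 and 63 counts. The shared window with the largest difference was coding sequence at chr16:70253714-70253800. It was 0.55 and 0.74 in R62W and 0.91 and 1.24 in R101H, on more than 100 input counts in each list. R101H was higher in 6 of 6 shared AARS1 windows, with a median difference of 0.30. CARS1, the cysteinyl enzyme, had 7 and 10 windows and a median difference of 0.17 over 6 shared windows, 4 of them higher in R101H. The other way, HARS1, the histidyl enzyme, was lower in R101H in 3 of 3 shared windows, with a median of -0.10. FARSA, a subunit of the phenylalanyl enzyme, was lower in 3 of 4, with a median of -0.07. NARS1, for asparagine, had 1, 4 and 1 windows. KARS1, LARS1, MARS1, RARS1, SARS1 and FARSB, like HARS1, were absent from the WT list and had 2 to 9 windows in each of the others.

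After centring, VARS1, AARS1 and QARS1 kept medians above 0, at 0.12, 0.09 and 0.02, while VARS2, CARS1, AARS2, TARS2, LARS2 and MARS2 turned to between -0.01 and -0.20. Less the median of 0.21 for all shared windows, the 136 synthetase windows shared by R62W and R101H had a median difference of -0.06, with 62 higher and 74 lower. As they stand, 95 of the 136 were higher in R101H, with a median of 0.15, and none passed the adjusted threshold, against 0% of all windows. An unadjusted p under 0.05 was found in 2 of them, 1.47%, against 1.8% of all windows.

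Against WT, 21 synthetase windows could be compared for R62W and 19 for R101H, and none passed the adjusted threshold in limma. R62W was higher in 17 of 21, with a median difference of 0.26, equal to the median of all windows. R101H was higher in 15 of 19, with a median of 0.67, against 0.60 for all windows. Without VARS2 the medians were 0.12 over 12 windows and 0.13 over 10. Windows that passed in every replicate of both groups numbered 1 for R62W and 2 for R101H, and none of them was called, against 0.0374% and 18.2% of all such windows. In the R101H comparison both were lower, with a median of -0.45. A window has to be listed in both groups to be compared, so these values leave out windows that were enriched with a substitution and not listed with WT.

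**Figure D3:**
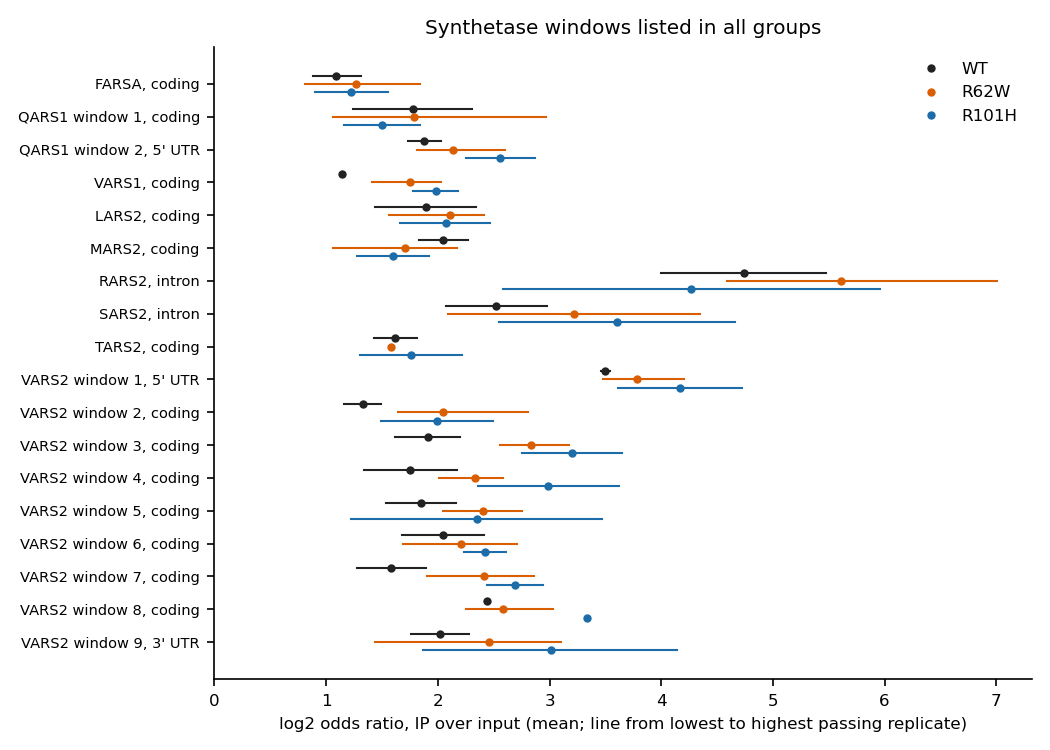
Log2 odds ratio (horizontal axis) of the 18 synthetase windows present in all 3 lists, in WT, R62W and R101H, with points for means and lines from the lowest to the highest passing replicate. Windows of a gene are numbered by position. The RARS2 intron window is highest in each group, at 4.74, 5.61 and 4.27, and in all 9 VARS2 windows WT has the lowest mean.

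Overlap between the lists was partial. R62W and R101H shared 136 synthetase windows, 60.2% of the R62W and 49.6% of the R101H windows, where all windows shared 69.2% and 64.2%. Of the 24 WT windows, 21 were also in R62W and 19 in R101H, and 2 were in neither. These are 87.5% and 79.2%, against 79.6% and 72% of all WT windows. These 2 were coding windows of MARS2 and TARS2, at 1.91 and 1.94 on 11 and 8 input counts.

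Among the mitochondrial enzymes, the window with the highest value of the family was in an intron of RARS2, the arginyl enzyme, at chr6:87575471-87575570 on the minus strand. Its values were 4.0, 4.73 and 5.48 (WT), 4.59, 5.22 and 7.01 (R62W) and 2.58 and 5.96 (R101H). The groups overlapped throughout, and each list had 1 input count there against 53, 108 and 37 IP counts. The differences from WT were 0.87 ± 0.68 (SE) for R62W and -0.47 ± 0.97 for R101H, with adjusted p of 0.724 and 0.80 in limma. Elsewhere RARS2 had no listed window in WT, 1 in R62W and 6 in R101H.

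AARS2, the mitochondrial alanyl enzyme, was in no WT window and had 17 windows in R62W and 21 in R101H, with medians of 1.80 and 1.79. It included 5 intron windows in each list. Its highest shared window, coding sequence at chr6:44311463-44311535, was 2.25 and 4.79 in R62W and 2.70 and 5.35 in R101H, on 2 input counts in each list. The groups overlapped. R101H was higher in 8 of 9 shared AARS2 windows, with a median difference of 0.13.

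TARS2, for threonine, had 2, 8 and 16 windows, with medians of 1.78, 1.82 and 1.73. LARS2, for leucine, had 1, 10 and 15, with medians of 1.89, 2.01 and 1.81. Their shared values between the substitutions were close, with median differences of 0.10 over 6 windows for TARS2 and 0.01 over 6 for LARS2. The LARS2 window listed in WT, coding sequence at chr3:45516185-45516276, was 1.44 and 2.34 (WT), 1.56, 2.36 and 2.41 (R62W) and 1.66 and 2.47 (R101H), so the groups overlapped almost completely. MARS2, the methionyl enzyme, ran the other way at chr2:197706890-197706988. There the values were 1.83 and 2.27 (WT), 1.06, 1.88 and 2.17 (R62W) and 1.28 and 1.92 (R101H), with differences of -0.35 ± 0.42 (SE), adjusted p = 0.854, and -0.45 ± 0.45, adjusted p = 0.58, in limma. IARS2 and SARS2, for isoleucine and serine, had 2 windows each in WT, with medians of 1.80 and 2.56, and between 6 and 8 in each substitution list. HARS2, EARS2, PARS2, CARS2, YARS2 and FARS2 were absent from the WT list and had 1 to 6 windows in each of the others.

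Coding windows in all 3 lists with at least 10 input counts in each were used to set the strongest coding windows of each compartment side by side. For the cytosolic enzymes the 3 genes with the highest WT values were QARS1 at 1.78, VARS1 at 1.14 and FARSA at 1.09. The QARS1 window, chr3:49099182-49099253, was 1.24 and 2.31 (WT), 1.06, 1.34 and 2.97 (R62W) and 1.16 and 1.84 (R101H). The FARSA window, chr19:12930223-12930281, was 0.88 and 1.31 (WT), 0.81, 1.15 and 1.84 (R62W) and 0.90 and 1.55 (R101H). In both the groups overlapped. For the mitochondrial enzymes they were VARS2 at 2.44, MARS2 at 2.05 and LARS2 at 1.89.

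Listed windows of mitochondrial synthetases had higher values than those of cytosolic synthetases, and lower input. The medians were 1.94, 1.99 and 2.00 for mitochondrial windows and 1.78, 1.42 and 1.34 for cytosolic windows in WT, R62W and R101H. Over all windows they were 2.03, 1.90 and 2.00. The mitochondrial median input count was 10 in each list and the cytosolic one 24, 22 and 27. The mitochondrial minus cytosolic difference was 0.16, 0.57 and 0.66. Without VARS2 it was 0.19, 0.44 and 0.52. No test was made, because genes and windows are not replicates of a condition.

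Pooled input count moved with that difference. Over all coding windows of the R62W list, the median value was 2.29 at 0 to 9 input counts, 1.78 at 10 to 19, 1.5 at 20 to 49 and 1.18 from 50, and the R101H list had 2.43, 1.82, 1.5 and 1.20. In coding windows with 0 to 9 input counts, the medians were 1.82 for cytosolic and 2.26 for mitochondrial windows in R62W, or 2.06 without VARS2. In R101H they were 1.85 and 2.14, or 2.08 without VARS2, and the cytosolic values rest on 4 and 5 windows. With 10 to 19 input counts, the R101H medians were 1.82 for cytosolic windows, 2.00 for mitochondrial windows and 1.60 for mitochondrial windows without VARS2, and 1.82 for all coding windows. In the same range of R62W they were 1.67, 1.78, 1.72 and 1.78. With 20 to 49 input counts the R101H medians were 1.24 and 1.34. In R62W they were 1.25 and 2.04, or 1.35 over 4 windows without VARS2, whose own 13 windows had a median of 2.27. No mitochondrial coding window reached 50 input counts, while 11 cytosolic windows in R62W and 25 in R101H did. From 10 to 49 counts the mitochondrial genes other than VARS2 lay above the cytosolic genes in R62W and in the upper range of R101H, and below them in its lower range. VARS2 lay above both in all 4 cases, with medians of 1.99 and 2.27 in R62W and 2.36 and 1.54 in R101H, the last over 3 windows. In R62W, 38 of 59 VARS2 windows passed in all 3 replicates, against 30 of 96 cytosolic windows. Counts are summed over passing replicates, so the same pooled count in R62W need not mean the same input per replicate.

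In number, cytosolic windows differed from the WT list by larger ratios than mitochondrial windows. Cytosolic genes had 5 windows with WT, 96 with R62W and 120 with R101H, ratios of 19.2 and 24 to WT. Mitochondrial genes had 19, 130 and 154, ratios of 6.84 and 8.11. The cytosolic ratios stand on 5 WT windows of 4 genes. Of 13 amino acids with a separate gene for each compartment, the mitochondrial gene had more windows in 7, 7 and 8 and the cytosolic gene in 1, 5 and 3. Phenylalanine is not among them, because its cytosolic enzyme has subunits from FARSA and FARSB. These genes had 4 windows each in R62W, and 6 and 3 in R101H, where FARS2 had 1 in each list. Where both genes of a pair were listed, the mitochondrial gene had the higher median in 9 of 9 pairs in R62W and 10 of 10 in R101H. For alanine the medians were 0.89 and 1.80 in R62W, and 1.05 and 1.79 in R101H. For histidine, whose genes HARS1 and HARS2 are neighbours on chromosome 5, they were nearly equal, at 1.80 and 1.86 in R62W and 1.92 and 2.05 in R101H. The alanine genes had median input counts of 79 and 7 in R62W and of 63 and 9 in R101H, and the histidine genes 11 and 10.5, and 9 and 6.5. In every pair with both genes listed, the mitochondrial gene also had the lower median input count, in R62W and in R101H. Some of these medians rest on 1 window, as for CARS2 in R62W and for IARS1 and YARS2 in R101H.

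The other subgroups are given as counts only. The 7 multisynthetase complex genes had 2, 41 and 55 windows, and QARS1 was the only complex gene in the WT list. Class I genes had 18, 146 and 174 windows and class II genes 6, 77 and 100, with VARS2 in class I. EPRS1, which holds both classes and had 3 windows in R62W, is counted in neither. All windows were 5.62 and 6.06 times as many in R62W and R101H as in WT. Synthetase windows were mainly coding, with 75%, 64.6% and 67.5% in WT, R62W and R101H, against 35.8%, 53.2% and 53.7% of all windows. Intron windows, which include those beside splice sites, were 8.33%, 16.8% and 13.5%, against 31.4%, 13.5% and 10.7% of all windows. In VARS1 a 3′ UTR window, chr6:31777518-31777593, reached 4.10 and 4.60 in R62W alone, on 0 input counts and 20 IP counts, so it has no measured ratio. The number of windows a gene can have grows with its length, so counts do not rank genes by binding per base.

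Of 15 other genes of tRNA charging, 8 had a listed window. Of these 8 listed genes, 2 had a window in WT, 6 in R62W and 8 in R101H. Among all genes listed in any group, 38%, 89.5% and 93.5% had a window in those lists. TUFM, the mitochondrial elongation factor that brings charged tRNA to the ribosome, had 2, 9 and 13 windows, with medians of 0.98, 1.09 and 1.07. AARSD1, an editing enzyme for mischarged alanine tRNA, had 1, 3 and 3 windows, with medians of 2.33, 1.68 and 2.29. The multisynthetase scaffold genes AIMP1 and EEF1E1 had 4 and 2 windows in R62W and 3 and 5 in R101H, and AIMP2 had none. XPOT, which exports tRNA from the nucleus, had 1 window in R62W and 4 in R101H, and GATB, of the mitochondrial amidotransferase, had 1 in each. MTFMT, which formylates the mitochondrial initiator tRNA, and QRSL1, of that amidotransferase, were listed in R101H alone, with 3 and 1 windows. That pattern held for 10.2% of all listed genes. DTD1, DTD2, TRNT1, GATC, PSTK and SEPSECS were in no list.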

How the data were processed

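Per the submitters' processing notes, reads were processed with fastp and STAR on GRCh38. Tool versions and the program that called windows were not given in the sources used here. For each IP group, the authors deposited 1 list of enriched windows, made from all its replicates. Read counts of IP and input in the deposited lists are whole numbers pooled over passing replicates. Enrichment is deposited on a log2 scale, per the file headers, as an odds ratio against input. The deposited q-values (and p-values) come from the authors' enrichment test, and the deposited fraction is the G and C content of a window. A further deposited column counts the replicates in which a window passed. Repeat element tables were not used here.

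With 2 or 3 passing replicates, the lowest, mean and highest values fix each replicate value, but not its replicate number. These values were compared with limma 3.58.1 (lmFit, eBayes; R 4.3.3) for windows at identical coordinates in both lists, with Benjamini-Hochberg adjustment over all such windows at 0.05. Count models could not be fitted to pooled counts. The fit was run on simulated data with the same pattern of missing values. The simulation did not apply the authors' rule for passing, so the effect of that selection was not tested. Tables were made with Python 3.11.15 and pandas 2.3.3.

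Genes described in full were the 5 with most windows in each group (all at a tie being described), the 5 with the largest median difference over at least 3 shared windows, genes in no list or 1 list, and for each compartment the 3 with the highest WT value of a coding window in all lists with at least 10 input counts. HARS1 and FARSA differences, the RARS2, AARS2, MARS2 and VARS1 3′ UTR windows and the amino acid pairs named were chosen after their values were seen. The VARS2, QARS1 and AARS1 windows with the largest differences were likewise picked by their values. The members and lists were chosen with earlier results of these data known. Alternatives were a stricter q, passing in every replicate, lists of equal length, single gene names, an input minimum, coding windows, centring, and, chosen after seeing the data, input ranges, leaving out VARS2 and medians over genes.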

Additional observations from a re-analysis of the deposited data

How the results depend on the processing

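Counts of listed windows depended on the lists' thresholds. With a highest q of at most 0.05, there were 5, 40 and 78 synthetase windows of 4, 13 and 17 genes in WT, R62W and R101H. With passing in every replicate, there were 2 windows of 2 genes in WT and 90 of 18 in R62W. These are 8.33% and 39.8% of the synthetase windows, against 22.8% and 44.5% of all windows in those lists. In R101H, with 2 replicates, every listed window passes this rule. At the length of the WT list there were 34 windows of 16 genes in R62W and 19 of 8 in R101H. Without VARS2 the WT list held 15 synthetase windows. Over windows of all annotations, the mitochondrial minus cytosolic median was 0.57 in R62W. It became 0.04 at 0 to 9 input counts and 0.12 at 10 to 19, and was 0.49 at 20 to 49 and 0.36 from 50. From 50 the mitochondrial side rests on an IARS2 3′ UTR window at 1.28 on 57 input counts, so that value describes no group of genes. In R101H the mitochondrial minus cytosolic median was 0.66 and became -0.04, 0.20 and 0.21 at 0 to 9, 10 to 19 and 20 to 49. The median difference R62W minus WT became 0.87 when windows had to pass in every replicate, which left 1 window. For R101H minus WT it became -0.45 under that rule, with 2 windows, 0.06 after centring on all windows and 0.13 without VARS2. Each of these settings changes which windows, or which zero, enter the median. Centring also turned the sign of 6 of 13 gene medians. No setting gave a called synthetase window, though with at least 10 input counts 654 of 6945 windows were called for R101H minus WT. No paired analysis was possible because the deposited replicate values carry no replicate number, and for the same reason leaving out each replicate in turn was not run. Low input counts limit each window's value.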
